A study of Mus musculus with 11 samples.

Results

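MT and ORR1 elements are mouse repeats of the MaLR group (mammalian apparent LTR retrotransposons), relatives of the endogenous retrovirus ERVL that encode no proteins of their own. An intact element has a long terminal repeat (LTR) at each end, which carries its promoter and its polyadenylation signal, around an internal part, and many genomic copies are a lone LTR. In the mouse, MT elements are known for strong transcription in growing oocytes, where their LTRs also start chimeric transcripts of host genes such as the oocyte form of Dicer1. LTR elements are held silent by DNA methylation, which Dnmt1 maintains, and by histone methylation that Setdb1 places where Trim28 and zinc finger proteins recruit it.

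The elements were taken by name from a table of repeat expression: every name that begins with MT followed by a letter from A to E, or with ORR1. These were 31551 of 442429 rows and 48 of 1550 names. MT gave 19 names on 14781 rows with 173205 genomic copies, and ORR1 gave 29 names on 16770 rows with 173467 copies. The table files all of them under the family ERVL-MaLR of the LTR class. Names that end in -int are internal parts, and the others are LTRs. A row joins the same-numbered copies of a name on up to 21 chromosomes. Its fragments can therefore not be assigned to a copy, except in the 6943 rows with a single location, which held 142.3 fragments in TKO_FL cells and 194.03 in TKO cells.

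The cells were J1 mouse embryonic stem cells with mutations in DNA methyltransferases, labelled TKO_FL and TKO. The design text writes the first as TKO+FL, so both carry what TKO stands for, other labels spell TKO as DNMT TKO, and neither the alleles nor the meaning of FL, nor whether a line is a single clone, is given in the sources used here. Both were sampled at day 0 on feeder layers of mouse embryonic fibroblasts stopped with mitomycin C, in medium with serum and LIF, and poly(A)-selected RNA was sequenced, 1 library each. Of the 11 samples, a further RNA sample (TKO_602) and 8 immunoprecipitations of DNA were not analysed here. With 1 library per genotype no difference below has a replicate check or a p-value, and the 95% intervals cover counting error only, without allowance for PCR duplicates.

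The repeat table held 1179815 fragments in TKO_FL cells and 1327700 in TKO cells, and the gene table held 10084490 in TKO_FL cells and 10860312 in TKO cells. Dnmt1 measured 1177 TPM in TKO_FL cells, against 54.9 TPM in TKO cells, a log2 fold of 4.40. The cells carried embryonic stem cell markers, whose 8 genes summed to 10754 TPM in TKO_FL cells and 8359 TPM in TKO cells. Markers of other cells moved with the genotype: the 15 measured of 16 primitive endoderm genes were all lower in TKO_FL cells, 14 of them at least 2-fold, against 3.06% of all 13642 measured genes, with sums of 175 TPM in TKO_FL cells and 842 TPM in TKO cells. The 10 measured of 12 fibroblast genes were also all lower, 4 at least 2-fold, with 225 TPM in TKO_FL cells and 441 TPM in TKO cells. Their part in the results on repeats was not tested.

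MT and ORR1 LTRs also lie at annotated gene starts, and their sequences show what these promoters look like. In the 250 bases before RefSeq gene starts (GRCm38.p6), an MT or ORR1 LTR covered at least 150 bases at 404 starts of 392 genes, 188 starts with MT and 216 with ORR1. The LTR lay on the strand of the gene at 267 of these starts and on the opposite strand at 137. The 7 windows below are examples from genes measured in these cells for which the LTR reads along the gene. They are those of the most highly expressed gene for 6 names, and of Pla2g5, the gene with such an LTR that was at least 2-fold higher in TKO_FL cells. Windows of other names, such as that of Me1 (MTD), and that of Gm8817 (MTB_Mm), the gene at least 2-fold lower, are not printed. Sequences are from RefSeq, 5′ to 3′ on the gene's strand, with LTR bases in capitals.
Iffo2, MTA_Mm, chr4:139530298-139530547, plus strand: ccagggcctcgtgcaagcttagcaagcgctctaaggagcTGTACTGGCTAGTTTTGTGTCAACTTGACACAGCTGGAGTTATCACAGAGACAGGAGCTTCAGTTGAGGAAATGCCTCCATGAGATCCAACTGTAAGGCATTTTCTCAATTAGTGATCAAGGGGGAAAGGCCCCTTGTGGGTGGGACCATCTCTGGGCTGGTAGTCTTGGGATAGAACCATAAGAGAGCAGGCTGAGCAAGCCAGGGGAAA
Adh5, MTB_Mm, chr3:138436950-138437199, plus strand: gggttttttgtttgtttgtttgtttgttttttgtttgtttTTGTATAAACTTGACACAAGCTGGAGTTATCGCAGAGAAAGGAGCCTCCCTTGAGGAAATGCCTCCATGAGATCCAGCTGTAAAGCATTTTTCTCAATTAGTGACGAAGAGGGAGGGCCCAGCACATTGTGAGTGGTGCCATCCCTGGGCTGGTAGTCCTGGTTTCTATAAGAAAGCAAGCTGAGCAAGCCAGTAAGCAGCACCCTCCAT
Spin1, MTB, chr13:51132547-51132796, plus strand: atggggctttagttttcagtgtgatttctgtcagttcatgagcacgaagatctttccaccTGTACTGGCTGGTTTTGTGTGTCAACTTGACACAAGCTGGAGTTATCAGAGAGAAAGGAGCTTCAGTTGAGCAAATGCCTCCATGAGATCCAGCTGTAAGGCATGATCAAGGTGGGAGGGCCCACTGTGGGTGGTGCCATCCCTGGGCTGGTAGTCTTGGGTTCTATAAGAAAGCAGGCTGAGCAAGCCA
Nrf1, MTC, chr6:30076071-30076320, plus strand: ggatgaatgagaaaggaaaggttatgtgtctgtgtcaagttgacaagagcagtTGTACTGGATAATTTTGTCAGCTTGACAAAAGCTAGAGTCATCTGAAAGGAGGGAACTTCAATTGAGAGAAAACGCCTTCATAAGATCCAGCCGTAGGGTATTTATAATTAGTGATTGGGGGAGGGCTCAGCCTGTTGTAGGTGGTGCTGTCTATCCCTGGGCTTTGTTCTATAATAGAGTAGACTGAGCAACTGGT
Pla2g5, MTE2b, chr4:138863470-138863719, minus strand: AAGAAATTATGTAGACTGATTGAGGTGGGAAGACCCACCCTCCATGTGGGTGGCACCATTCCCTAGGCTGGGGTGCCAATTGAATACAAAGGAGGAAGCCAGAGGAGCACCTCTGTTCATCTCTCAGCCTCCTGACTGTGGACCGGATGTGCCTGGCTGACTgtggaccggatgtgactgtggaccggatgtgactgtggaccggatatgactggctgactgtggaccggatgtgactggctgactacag
Nqo2, ORR1A2, chr13:33966903-33967152, plus strand: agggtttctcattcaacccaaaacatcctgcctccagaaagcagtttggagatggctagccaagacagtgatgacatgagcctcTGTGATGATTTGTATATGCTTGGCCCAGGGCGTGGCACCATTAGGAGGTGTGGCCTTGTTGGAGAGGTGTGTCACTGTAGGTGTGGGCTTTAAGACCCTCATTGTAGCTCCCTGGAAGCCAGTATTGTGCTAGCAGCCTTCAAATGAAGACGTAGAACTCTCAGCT
Aim2, ORR1E, chr1:173420354-173420603, plus strand: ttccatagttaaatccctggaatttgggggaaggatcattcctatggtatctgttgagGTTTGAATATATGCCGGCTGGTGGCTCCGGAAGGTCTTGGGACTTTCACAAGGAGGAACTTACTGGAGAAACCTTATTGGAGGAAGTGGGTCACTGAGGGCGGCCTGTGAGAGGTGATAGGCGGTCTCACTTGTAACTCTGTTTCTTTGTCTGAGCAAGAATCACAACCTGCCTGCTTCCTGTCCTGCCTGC

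The MTA and MTB windows share long runs of bases. The LTR bases before Adh5 (MTB_Mm), an alcohol dehydrogenase gene, and Spin1 (MTB), a histone reader gene active in oocytes, share a run of 27 bases, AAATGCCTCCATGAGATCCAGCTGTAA. Those before Adh5 and Iffo2 (MTA_Mm) share 26 bases, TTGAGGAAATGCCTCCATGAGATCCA. The LTR before Nrf1 (MTC), a transcription factor gene, shares runs of 11 bases with Adh5 and Spin1, no longer than the 11 bases that the MTE2b LTR before Pla2g5 shares with the ORR1A2 LTR before Nqo2. The LTR reaches the start in 6 of the windows, and in that of Pla2g5, a secreted phospholipase gene, it ends 88 bases before it. These windows hold few CpG dinucleotides, the sites of DNA methylation: the median was 1 over the 404 windows, against 6 over all 32851 promoter windows. The motif TATAAA, searched on both strands, occurred in 14.9% of the 404 windows and in 12.4% of all windows.

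MT and ORR1 made up the same small share of repeat expression in both genotypes. They held 2.66% of all repeat fragments in TKO_FL cells and 2.66% in TKO cells. Pooled as if they were 1 feature, they had 0.269 TPM in TKO_FL cells and 0.282 TPM in TKO cells, against 0.896 TPM in TKO_FL cells and 0.938 TPM in TKO cells for all repeats, so they lay below the average repeat per base. In bulk RNA, fewer cells of a type and less RNA per cell cannot be told apart. Of the 31551 rows, 8979 (28.5%) had a fragment in either library, close to the 28.6% of all repeat rows, and 3671 had one in both. Signal was unequal: the 10 richest rows held 10.2% of the fragments and the 100 richest held 33.6%.

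Between genotypes the totals were close. MT summed to 3739 TPM in TKO_FL cells and 4028 TPM in TKO cells, a log2 fold of -0.11 (interval -0.16 to -0.05). ORR1 summed to 3323 TPM in TKO_FL cells and 3612 TPM in TKO cells, a log2 fold of -0.12 (interval -0.18 to -0.07). All repeats stood at 0.00, because TPM sets the totals nearly equal (980459 TPM in TKO_FL cells, 980210 TPM in TKO cells). Both groups were thus slightly lower in TKO_FL cells than repeats as a whole on this scale. MT turned to 0.038 when fragments were scaled to the total of repeat fragments. A TPM sum weighs each fragment by 1 over the length of its row, and a fragment in a 300-base row adds 2.83 TPM in TKO_FL cells and 2.63 TPM in TKO cells.

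On fragments, which weigh long and short rows alike, the log2 fold of MT lay above that of ORR1, and 1 row carried most of that difference. MT had 16781.9 fragments in TKO_FL cells and 18395.5 in TKO cells, a log2 fold of -0.03 (interval -0.06 to 0.00) after scaling as in the table, and of 0.038 scaled to all repeat fragments. ORR1 had 14543.9 fragments in TKO_FL cells and 16861.8 in TKO cells, a log2 fold of -0.11 (interval -0.14 to -0.08). Scaled to all repeat fragments, ORR1 was at -0.043. The difference, MT minus ORR1, was 0.08 (interval 0.04 to 0.13). An MTD row with a copy in an exon of the gene Lima1 had 847 fragments in TKO_FL cells and 311 in TKO cells. Without it MT had 15934.9 fragments in TKO_FL cells and 18084.5 in TKO cells, a log2 fold of -0.08, and the difference from ORR1 was 0.03 (interval -0.01 to 0.08). Fragments of all repeats had a log2 fold of -0.07 on this scale, between the MT and the ORR1 value. On summed TPM the difference was 0.01, with a counting error of 0.08 to either side. Over all rows it thus passed counting error on fragments with the Lima1 row, and neither without that row nor on summed TPM. Without the MTA names, chosen after seeing the values, the difference on fragments was 0.15 (interval 0.10 to 0.20), with the Lima1 row kept. Rows without a copy in an exon, which leave the Lima1 row out, differed by 0.07 on fragments (interval 0.02 to 0.13) and by 0.03 on summed TPM.

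LTRs and internal parts differed beyond counting error within MT, while the interval held 0 within ORR1. MT LTRs had a log2 fold of 0.02 on fragments and MT internal parts one of -0.17, a difference of 0.20 (interval 0.13 to 0.27). ORR1 LTRs and ORR1 internal parts both had a log2 fold of -0.11, a difference of 0.01 (interval -0.07 to 0.08). The difference within MT rested on MTA_Mm-int, which held most internal fragments, and on the Lima1 row: it was 0.06 (interval -0.03 to 0.16) without the MTA names and -0.01 (interval -0.11 to 0.08) without these and that row. On summed TPM the order was the same, with a log2 fold of -0.07 for MT LTRs and -0.24 for MT internal parts. Only the median over names ran the other way, with -0.05 for MT LTRs and 0.05 for MT internal parts. MT LTRs stood 0.13 above ORR1 LTRs (interval 0.08 to 0.18), and 0.06 above them without the Lima1 row (interval 0.01 to 0.12), while the internal parts differed by -0.06 (interval -0.15 to 0.03).

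Other ERVL-related LTR groups were also slightly below 0 on fragments, near the -0.07 of all repeats. That value lay within the intervals of MLT1 (-0.13 to -0.04) and of MT2 with MERVL (-0.13 to -0.05). The older MLT1 names, also MaLR elements, had a log2 fold of -0.09 on fragments, and MT and ORR1 together differed from them by 0.02 (interval -0.03 to 0.07). MT alone stood 0.06 above MLT1 (interval 0.0036 to 0.11), and 0.01 above it without the Lima1 row, where the interval held 0. The 8 names that begin with MT2 or MERVL, MERVL being the ERVL element of the 2-cell embryo, likewise had -0.09 together. MT and ORR1 together differed from these 8 names by 0.03 (interval -0.02 to 0.07).

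Subfamilies, lettered from the youngest MTA to the oldest MTE and from ORR1A to ORR1G, spread on both sides of 0. MTA was lowest, with 4041.44 fragments in TKO_FL cells and 5088.18 in TKO cells, a log2 fold of -0.23 (interval -0.29 to -0.17). MTD was highest among the MT subfamilies, with 4259.4 fragments in TKO_FL cells and 4247.18 in TKO cells, a log2 fold of 0.11 (interval 0.05 to 0.17), but this sign rested on the Lima1 row. Without that row MTD had 3412.4 fragments in TKO_FL cells and 3936.18 in TKO cells, a log2 fold of -0.10 (interval -0.17 to -0.04). The intervals of MTB, MTC and MTE held 0, with folds of 0.06, 0.00 and -0.01. Among ORR1 subfamilies, ORR1A to ORR1D lay below 0, from -0.10 in ORR1A to -0.17 in ORR1B and ORR1C. The value of all repeats, -0.066, lay within the intervals of ORR1A (-0.15 to -0.05) and ORR1D (-0.20 to -0.05). The intervals of ORR1B (-0.25 to -0.08) and ORR1C (-0.26 to -0.074) lay below it. The intervals of ORR1E, ORR1F and ORR1G held 0. With all rows, no MT subfamily other than MTA had an interval below 0.

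**Figure D1:**
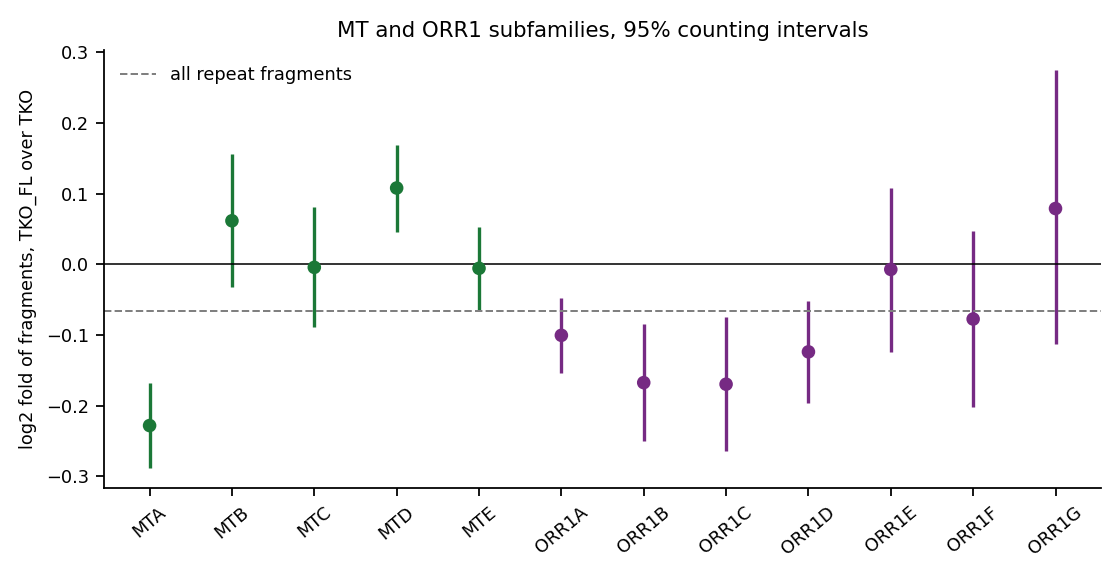
Log2 fold of fragments, TKO_FL over TKO, for the 5 MT subfamilies (green) and 7 ORR1 subfamilies (purple), with 95% counting intervals as bars and the value of all repeat fragments (-0.07) as a dashed line. MTA at -0.23 lies below every other subfamily, and MTD at 0.11 has the only interval wholly above 0, which without the Lima1 row becomes -0.10.

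By level per base, a few internal parts led the 48 names. ORR1A0-int had 1.48 TPM in TKO_FL cells and 1.29 TPM in TKO cells when pooled as 1 feature. MTB-int had 1.26 TPM in TKO_FL cells and 1.14 TPM in TKO cells, but 78.1% of its fragments came from a row with a copy in an exon of Hmmr. ORR1A4-int (0.781 TPM in TKO_FL cells, 0.973 TPM in TKO cells) and MTA_Mm-int (0.742 TPM in TKO_FL cells, 0.912 TPM in TKO cells) came next. These values lie near or above the average over all repeats. Low levels were also found among internal parts, of which ORR1G-int was listed at 0 in TKO cells: ORR1C1-int had 0.033 TPM in TKO_FL cells and 0.048 TPM in TKO cells, and ORR1B2-int had 0.039 TPM in TKO_FL cells and 0.038 TPM in TKO cells.

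**Figure D2:**
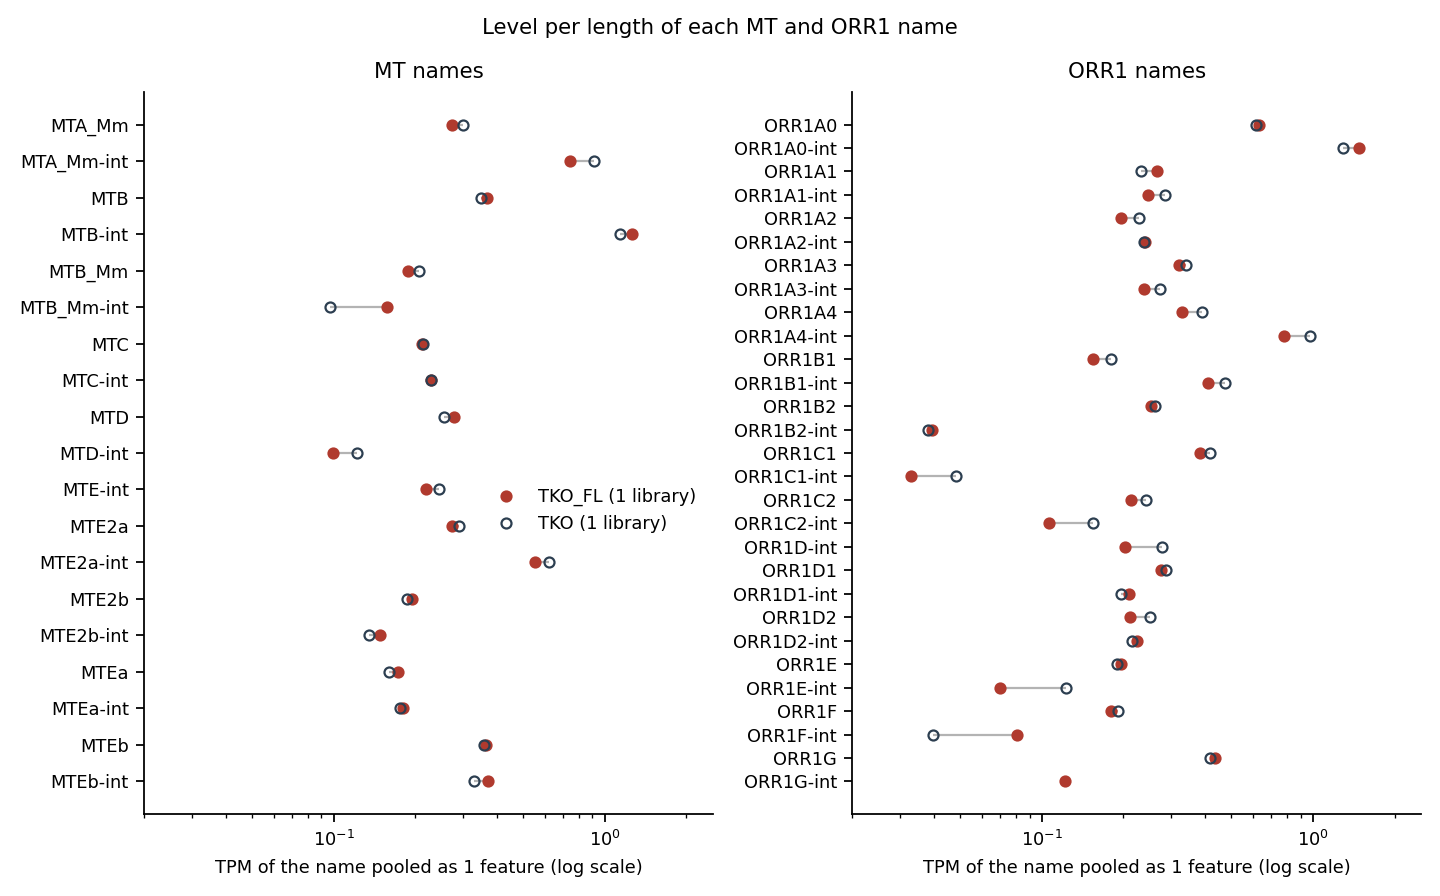
Level of each MT (left) and ORR1 (right) name when its rows are pooled as 1 feature, in TPM on a log axis, with TKO_FL cells as filled and TKO cells as open circles (1 library each). ORR1A0-int and MTB-int stand highest, and ORR1G-int, listed at 0 in TKO cells, has no open circle.

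Of the 48 names, 46 reached 5 TPM over both libraries, all 19 MT and 27 ORR1 names. On log2(TPM + 1), 1 of the 46 was at least 2-fold higher in TKO_FL cells and 1 at least 2-fold lower, against 6.21% higher and 6.79% lower among all 1046 repeat names that met the minimum. The median log2 fold was -0.03 over the MT names and -0.22 over the ORR1 names, against -0.01 over all names. Of the MT names 9 were above 0 and 10 below, and of the ORR1 names 8 were above 0 and 19 below. The 2 names under the minimum are internal parts: ORR1F-int had 13.25 fragments in TKO_FL cells and 7 in TKO cells, and ORR1G-int had 3 in TKO_FL cells and 0 in TKO cells.

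Both calls concern ORR1 internal parts with few fragments. ORR1E-int had 12.0 TPM in TKO_FL cells, against 30.4 TPM in TKO cells, a log2 fold of -1.27. Its 49 fragments in TKO_FL cells and 92.36 in TKO cells give a log2 fold of -0.81 (interval -1.34 to -0.29). ORR1E, its LTR partner, did not follow, with 328 TPM in TKO_FL cells and 291 TPM in TKO cells. ORR1B2-int had 7.64 TPM in TKO_FL cells and 2.45 TPM in TKO cells, a log2 fold of 1.33, but 18.8 fragments in TKO_FL cells and 19.5 in TKO cells. Its difference in TPM came from a row of 288 bases with 2 fragments in TKO_FL cells and 0 in TKO cells. ORR1B2, the LTR, had 120 TPM in TKO_FL cells and 140 TPM in TKO cells.

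Counted on fragments, 34 of the 48 names had an interval that held 0. It lay below 0 for 12 names: MTA_Mm, MTA_Mm-int, ORR1A2, ORR1A4, ORR1A4-int, ORR1B1, ORR1B1-int, ORR1C2, ORR1C2-int, ORR1D-int, ORR1D2 and ORR1E-int. It lay above 0 for MTD, through the Lima1 row, and for ORR1A0-int. Thus 10 of 29 ORR1 names and 2 of 19 MT names were lower in TKO_FL cells beyond counting error on the scale of the table. Among all 949 repeat names with at least 20 fragments, 17.3% had an interval below 0, against 10 of 28 such ORR1 names (35.7%) and 2 of 19 MT names (10.5%). Against the -0.07 of all repeats together, the interval lay below for 7 of the 47 names (14.9%), namely MTA_Mm-int, ORR1A2, ORR1A4, ORR1A4-int, ORR1B1, ORR1D2 and ORR1E-int, and for 11.5% of all repeat names. It lay above that value for 7 of the 47 names (14.9%), of which 5 were MT names with MTD among them through the Lima1 row, and for 20.4% of all repeat names.

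**Figure D3:**
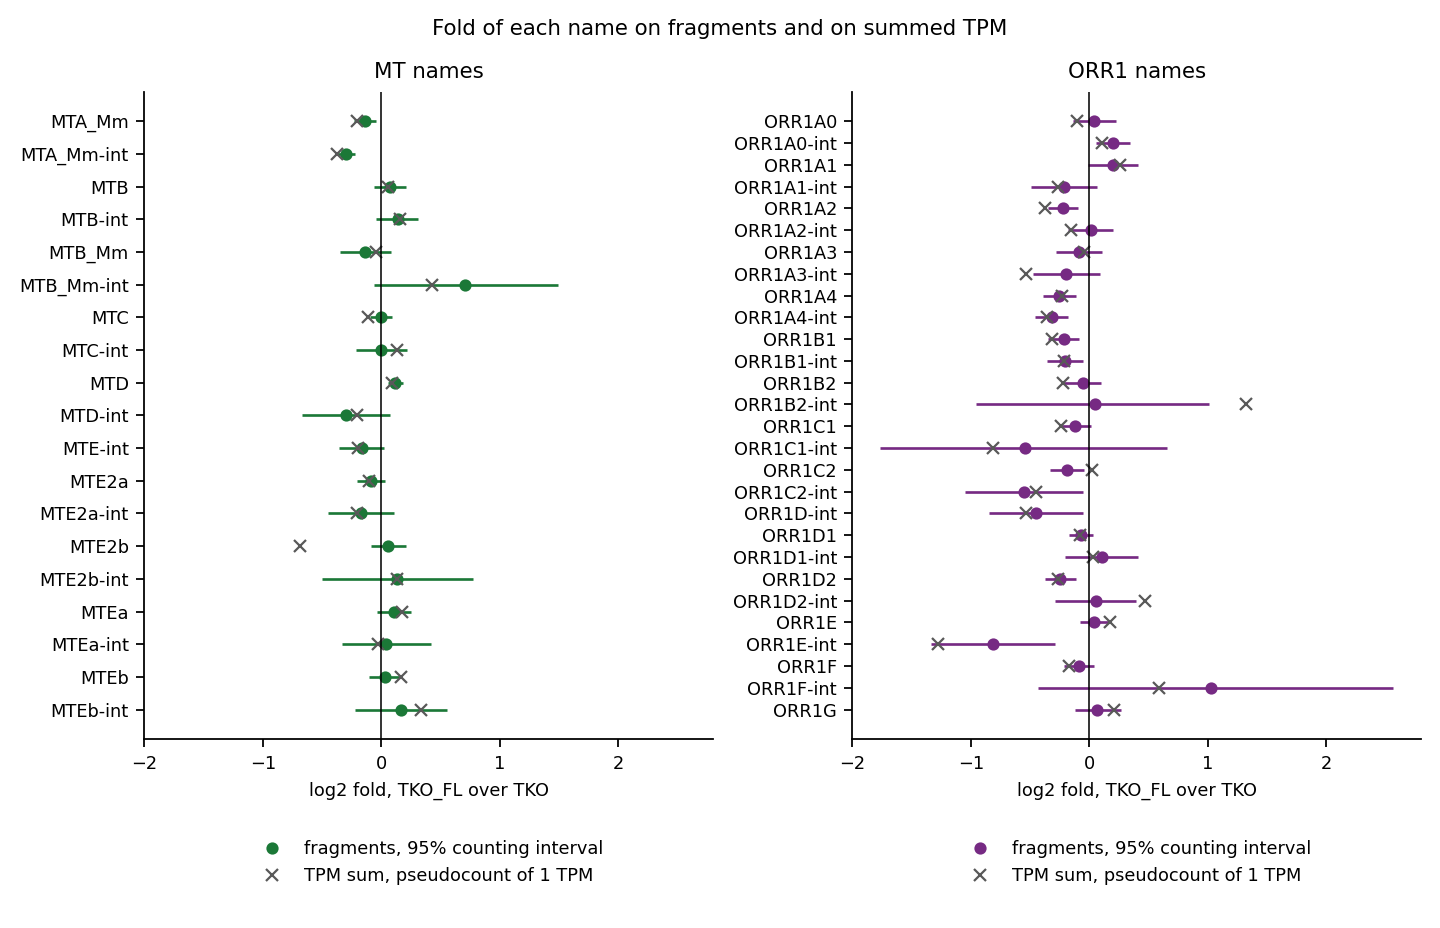
Log2 fold of each MT (left) and ORR1 (right) name, TKO_FL over TKO, with at least 20 fragments over both libraries: circles with bars give fragments with their 95% counting interval, and crosses give summed TPM with a pseudocount of 1 TPM. Most names lie within 0.5 of 0, and the cross stands far from the circle for MTE2b and ORR1B2-int, where short rows weigh more in the TPM.

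MTD, the MT name with the highest sum, had 828 TPM in TKO_FL cells and 778 TPM in TKO cells. Its 4150.4 fragments in TKO_FL cells and 4103.48 in TKO cells give a log2 fold of 0.12 (interval 0.06 to 0.18), and of -0.10 (interval -0.16 to -0.03) without the Lima1 row. MTD-int had 20.8 TPM in TKO_FL cells and 24.2 TPM in TKO cells. MTA_Mm, the youngest MT LTR, had 611 TPM in TKO_FL cells and 706 TPM in TKO cells, and its fragments numbered 1775.67 in TKO_FL cells and 2093.99 in TKO cells, a log2 fold of -0.13 (interval -0.23 to -0.04). MTA_Mm-int had 405 TPM in TKO_FL cells and 525 TPM in TKO cells, and 2265.77 fragments in TKO_FL cells and 2994.19 in TKO cells, a log2 fold of -0.30 (interval -0.38 to -0.22). Both MTA names were therefore lower in TKO_FL cells, the internal part more so.

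MTB_Mm, another young LTR, had 68.2 TPM in TKO_FL cells and 70.4 TPM in TKO cells, and MTB_Mm-int had 4.28 TPM in TKO_FL cells and 2.92 TPM in TKO cells. MTE2b showed the effect of row length: it had 221 TPM in TKO_FL cells and 355 TPM in TKO cells, but 735.07 fragments in TKO_FL cells and 757.79 in TKO cells. A single row of 65 bases, with 1 fragment in TKO_FL cells and 5 in TKO cells, accounted for 13.1 TPM in TKO_FL cells and 60.7 TPM in TKO cells. It had the largest TPM difference of any MTE2b row, but made up only a part of the gap between the sums.

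The ORR1 LTRs with the highest sums were close between genotypes. ORR1D1 had 381 TPM in TKO_FL cells and 403 TPM in TKO cells, and ORR1F had 344 TPM in TKO_FL cells and 387 TPM in TKO cells. The internal part ORR1D1-int had 38.7 TPM in TKO_FL cells and 37.8 TPM in TKO cells. Among the young names, ORR1A0 had 124 TPM in TKO_FL cells and 133 TPM in TKO cells, and ORR1A1 had 79.3 TPM in TKO_FL cells and 66.0 TPM in TKO cells. ORR1A0-int was higher, with 828.6 fragments in TKO_FL cells and 774.85 in TKO cells, a log2 fold of 0.20 (interval 0.06 to 0.34), and ORR1A1-int had 196.43 fragments in TKO_FL cells and 244.1 in TKO cells, with an interval that held 0. The intervals of both MTA names thus lay below 0, while among these 4 young ORR1 names that of ORR1A0-int lay above 0 and the other 3 held 0.

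Some fragments were divided among rows that they matched equally, and names differed in how many of their rows this touched. Of the rows with signal, 65.7% of MTA_Mm, 94.3% of MTA_Mm-int, 68.9% of ORR1A3-int, 43.8% of ORR1A0 and 85.7% of ORR1A0-int held parts of a fragment. The share was 6.72% for ORR1A1, 4.38% for MTB_Mm, 2.79% for MTD, 0.781% for ORR1E and 0 for MTB_Mm-int. Over all names the share was 18.6% for MT and 9.58% for ORR1, against 14.9% for all repeats. For the MTA names and ORR1A0-int a row's value thus rests on how fragments were divided.

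The lower MTA signal lay mainly in rows with a copy on distal chromosome 2, a stretch chosen after these values were seen. The stretch runs from Gm14393 to Zfp931 (chr2:175061549-178078425, mm10) and holds the zinc finger genes Zfp970, Zfp971 and Zfp972 among predicted genes. The 249 MTA rows with a copy there had 1611.4 fragments in TKO_FL cells and 2344.55 in TKO cells, a log2 fold of -0.44. The other 1263 MTA rows had 2430.04 fragments in TKO_FL cells and 2743.63 in TKO cells, a log2 fold of -0.07, close to that of all repeats. MT rows other than MTA with a copy there held only 58.86 fragments in TKO_FL cells and 62.7 in TKO cells. Their log2 fold of 0.01 rests on too few fragments to be set against that of MTA. Those without a copy there had 0.04. ORR1A0 with ORR1A0-int had -0.08 in 37 rows with a copy there and 0.37 in 186 rows without. The MTA rows of the stretch joined copies at a median of 3 places, so their fragments cannot be assigned to chromosome 2.

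Most measured genes of that stretch lay below 0. Of 13 measured genes 9 were below 0 and 4 above, with a median log2 fold of -0.20, and 1 was at least 2-fold higher and 0 at least 2-fold lower, against 3.58% higher and 3.06% lower among all 13642 measured genes. Gm14325 had 13.1 TPM in TKO_FL cells and 16.4 TPM in TKO cells, and Gm14322 had 3.54 TPM in TKO_FL cells and 5.57 TPM in TKO cells. Of the 13 genes, 6, with Gm14325 and Gm14322 among them, have exons that overlap a copy of an MTA row with at least 20 fragments. For these 6, gene and repeat values can share fragments, so they are no separate measurement. All 6 were below 0, while the genes without such an overlap lay on both sides of 0 and included the 4 above it. The gene past 2-fold was Gm2004, with 21.5 TPM in TKO_FL cells and 5.13 TPM in TKO cells.

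Much of the signal of both groups lay in rows that touch annotated exons. Rows with a copy in an exon were 1863 of the 31551 (5.90%) and held 45.0% of the fragments. The share was 47.8% for MT and 41.8% for ORR1, lower than the 71.6% of all repeats, the 67.0% of MLT1 and the 58.0% of the MT2 and MERVL names. Among subfamilies it ran from 23.7% in MTA and 24.6% in ORR1A to 75.5% in ORR1G. Rows with no copy in any gene body held 2.42%.

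On fragments, rows with and without an exon differed in fold for ORR1, and for MT mainly through the Lima1 row. MT rows with an exon copy had 8268.24 fragments in TKO_FL cells and 8546.62 in TKO cells, a log2 fold of 0.06, and those without had 8513.66 fragments in TKO_FL cells and 9848.86 in TKO cells, a log2 fold of -0.11. The difference was 0.16 (interval 0.10 to 0.22). ORR1 rows with an exon copy had 6302.13 fragments in TKO_FL cells and 6820.25 in TKO cells, a log2 fold of -0.01, and those without had 8241.73 fragments in TKO_FL cells and 10041.5 in TKO cells, a log2 fold of -0.18. The difference was 0.17 (interval 0.11 to 0.24). On summed TPM the differences over all rows were 0.23 for MT and 0.27 for ORR1, and were not computed without the Lima1 row. Without the Lima1 row MT exon rows had 7421.24 fragments in TKO_FL cells and 8235.62 in TKO cells, a log2 fold of -0.05, and their difference from the other MT rows was 0.06 with an interval that held 0 (-0.0022 to 0.12).

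Few single rows carried enough fragments to compare. Of the 31551 rows, 544 had at least 20 fragments over both libraries, 296 MT and 248 ORR1, and held 60.5% of the fragments, while 31007 fell below. Of the 544, 21 (3.86%) were at least 2-fold higher in TKO_FL cells and 27 (4.96%) at least 2-fold lower, against 4.27% higher and 6.55% lower of all 14677 repeat rows with that many fragments. MT gave 14 higher and 17 lower rows, and ORR1 gave 7 higher and 10 lower. The median log2 fold was -0.06, against -0.02 over all such rows. These shares lie near the background.

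**Figure D4:**
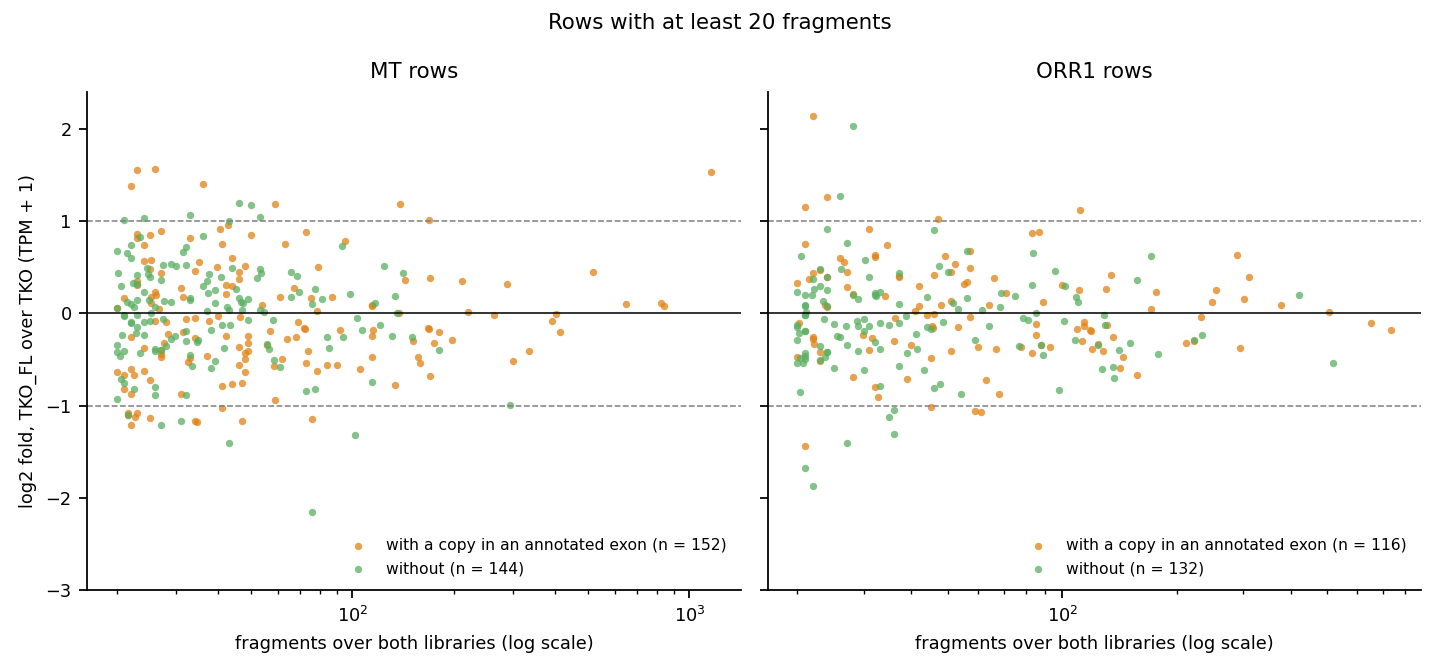
Log2 fold on log2(TPM + 1), TKO_FL over TKO, against fragments over both libraries (log axis) for the 296 MT rows (left) and 248 ORR1 rows (right) with at least 20 fragments, coloured by whether a copy overlaps an annotated exon, with dashed lines at 2-fold. The spread narrows with fragments, and the MTD row with a copy in an exon of Lima1 stands apart at the right, at 1.53.

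The row with most fragments was also among the highest folds. It is an MTD row with a copy at chr15:99778796-99779059 (mm10), whose 264 bases all lie in exon sequence of Lima1, an actin-binding protein gene. It had 847 fragments in TKO_FL cells, against 311 in TKO cells, and 141 TPM in TKO_FL cells against 48.1 TPM in TKO cells, a log2 fold of 1.53 with an interval of 1.36 to 1.74 on fragments. Lima1 itself had 266 TPM in TKO_FL cells and 99.7 TPM in TKO cells, a log2 fold of 1.41, so row and gene were higher together. Without the richest row of each group, the difference in summed TPM, MT minus ORR1, was -0.03.

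Of the other rows with most fragments, 3 were close between genotypes. The MTD row with a copy in an exon of Cenpa (chr5:30669559-30669908), the gene of the centromeric histone, had 416.67 fragments in TKO_FL cells and 424.33 in TKO cells. The MTB-int row with a copy in an exon of Hmmr (chr11:40701590-40702303), a spindle protein gene, had 413 fragments in TKO_FL cells and 408 in TKO cells. The ORR1C1 row that overlaps 1 exon base of Magoh (chr4:107883009-107883068), an exon junction complex gene, had 331.33 fragments in TKO_FL cells and 404.5 in TKO cells. In all 3, the interval of the fold held 0.

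The highest folds, apart from that of the Lima1 row, came from rows with few fragments. The ORR1D2-int row in an exon of 2610002M06Rik has a single location, chrX:107786139-107786539, and had 18 fragments in TKO_FL cells and 4 in TKO cells, a log2 fold of 2.14. An ORR1A3 row with no exon copy had 26 fragments in TKO_FL cells and 2 in TKO cells, a log2 fold of 2.03. The MTEb row with a copy in an exon of Clmn had 21 fragments in TKO_FL cells and 5 in TKO cells, and the MTD row with a copy in an exon of 1700080O16Rik had 20 fragments in TKO_FL cells and 3 in TKO cells. The gene 1700080O16Rik was higher as well, with 11.1 TPM in TKO_FL cells and 3.11 TPM in TKO cells, while Clmn had 5.50 TPM in TKO_FL cells and 3.65 TPM in TKO cells.

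The lowest folds belonged to rows of which 4 of 5 had no copy in an exon. An MTA_Mm row with 4 locations had 12 fragments in TKO_FL cells and 64 in TKO cells, a log2 fold of -2.15. An ORR1D1 row had 1 fragment in TKO_FL cells and 21 in TKO cells, a ratio with an interval from -9.66 to -1.65 on the log2 scale. An ORR1D-int row had 3 fragments in TKO_FL cells and 18 in TKO cells, and an ORR1A2-int row had 5 fragments in TKO_FL cells and 22 in TKO cells. Another ORR1D1 row, with copies in exons of A930005H10Rik and Gm11729, had 3 fragments in TKO_FL cells and 18 in TKO cells. Of their names, MTA_Mm and ORR1D-int were lower beyond counting error, and the intervals of ORR1D1 and ORR1A2-int held 0.

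Rows in exons went largely with the gene. For 210 rows with at least 20 fragments, a single exon gene and a gene level of at least 1 TPM, the log2 folds of row and gene had Pearson's r of 0.63 and Spearman's rho of 0.60 across rows, and 161 of 210 had the same sign. The row's copy lay on the strand of the gene in 120 rows and on the opposite strand in 90. MT (117 rows, r = 0.64) and ORR1 (93 rows, r = 0.60) were alike, and without the Lima1 row r was 0.61. Row and gene come from the same libraries and can share fragments, so the correlation describes these libraries and has no test. Exon overlap was taken without strand, and whether reads were counted by strand is not given. Of 19 such rows past 2-fold, 3 had a gene past 2-fold in the same direction, and 16 had a gene within 2-fold.

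**Figure D5:**
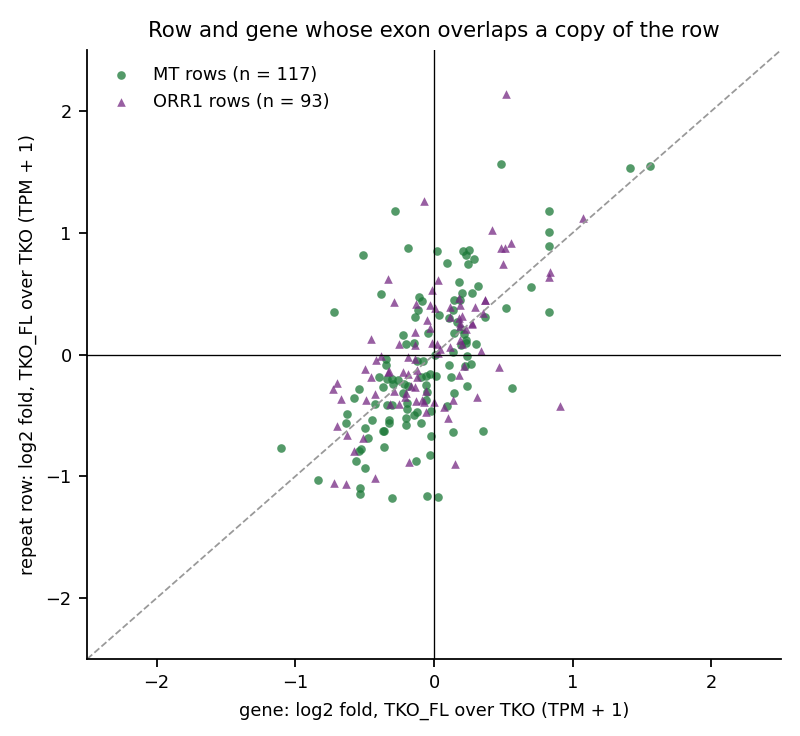
Log2 fold of 210 repeat rows (vertical) against that of the gene whose exon overlaps a copy (horizontal), both TKO_FL over TKO on log2(TPM + 1), with 117 MT rows as circles, 93 ORR1 rows as triangles and equality as a dashed line. Points run along the diagonal, and 161 of 210 lie in the quadrants where row and gene have the same sign.

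Genes with an MT or ORR1 LTR before an annotated start were close between genotypes. The LTR reached the start itself at 310 of the 404 starts. Of the 392 genes, 89 were in the gene table and 27 had at least 1 TPM in a library, 18 with an MT and 9 with an ORR1 LTR. The LTR lay on the strand of the gene for 20 of the 27 and on the opposite strand for 7. Of the 27 genes, 1 was at least 2-fold higher in TKO_FL cells and 1 at least 2-fold lower, against 3.58% higher and 3.06% lower over all measured genes. Their median log2 fold was 0.04, against 0.00. Pla2g5 had 14.1 TPM in TKO_FL cells and 3.98 TPM in TKO cells, a log2 fold of 1.60 with an interval of 1.33 to 2.35 on fragments. Gm8817, with an MTB_Mm LTR, had 0 fragments in TKO_FL cells and 5 in TKO cells. A gene's level sums all its transcripts, not those from the start with the LTR alone.

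The other genes with printed windows differed by less than 2-fold. Adh5 had 266 TPM in TKO_FL cells and 297 TPM in TKO cells, and Spin1 had 122 TPM in TKO_FL cells and 118 TPM in TKO cells. Aim2, a sensor of DNA in the cytosol, had 59.4 TPM in TKO_FL cells and 45.4 TPM in TKO cells. Nrf1 had 23.3 TPM in TKO_FL cells and 25.3 TPM in TKO cells, and Iffo2 had 11.7 TPM in TKO_FL cells and 15.6 TPM in TKO cells. Nqo2, a quinone reductase gene, had 13.1 TPM in TKO_FL cells and 12.1 TPM in TKO cells.

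Silencing factors of LTR elements, oocyte genes and genes of the 2-cell stage were read beside the repeats. Of 28 silencing genes, all measured, 1 (Dnmt1) was at least 2-fold higher and 0 at least 2-fold lower, against 3.58% higher and 3.06% lower over all measured genes, with a median log2 fold of -0.08, against 0.00. The next folds were those of Zfp932, a KRAB zinc finger gene (12.4 TPM in TKO_FL cells, 24.0 TPM in TKO cells), the histone methyltransferase gene Ehmt2 (64.0 TPM in TKO_FL cells, 108 TPM in TKO cells) and the imprinting zinc finger gene Zfp57 (117 TPM in TKO_FL cells, 169 TPM in TKO cells). Trim28, named like Setdb1 after its values were seen, had 1178 TPM in TKO_FL cells and 1568 TPM in TKO cells. Setdb1 had 64.1 TPM in TKO_FL cells and 77.5 TPM in TKO cells. In all, 9 of the 28 genes were above 0 and 19 below.

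Of 24 oocyte genes 11 were measured. None passed 2-fold upward (3.58% of all measured genes did), 1 was at least 2-fold lower (3.06% of all), and the median log2 fold was 0.19. The zona pellucida gene Zp3 had 5.54 TPM in TKO_FL cells, against 12.6 TPM in TKO cells, while Dppa3, a maternal factor also active in embryonic stem cells, had 200 TPM in TKO_FL cells and 115 TPM in TKO cells. Nlrp14 had 7.21 TPM in TKO_FL cells and 3.51 TPM in TKO cells, and Gdf9, an oocyte growth factor gene, had 1.23 TPM in TKO_FL cells and 0.228 TPM in TKO cells. The Gdf9 values rest on 10 fragments in TKO_FL cells and 2 in TKO cells (interval 0.20 to 5.66 on the log2 scale). Dicer1, chosen for its MT promoter in oocytes, had 36.7 TPM in TKO_FL cells and 38.7 TPM in TKO cells.

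Of 22 genes of the 2-cell stage, 19 were in the table and 10 measured. Of these 1 was at least 2-fold higher (3.58% of all measured genes), none was 2-fold lower (3.06% of all), and the median log2 fold was -0.39. Fragments were few, and the intervals of Zscan4a, Zscan4c, Zscan4d, Usp17la, Usp17lc, Usp17ld and Tmem92 held 0. Dux, which activates MERVL in the 2-cell embryo, had 3.61 TPM in TKO_FL cells, against 1.22 TPM in TKO cells. Its fragments numbered 33 in TKO_FL cells and 12 in TKO cells (interval 0.58 to 2.65 on the log2 scale). Members of the near-identical Usp17l group split: Usp17le had 5.16 TPM in TKO_FL cells and 2.29 TPM in TKO cells, Usp17lb had 1.29 TPM in TKO_FL cells and 3.33 TPM in TKO cells, and Usp17ld had 0.270 TPM in TKO_FL cells and 1.00 TPM in TKO cells. The counting could divide reads among such copies, so these 3 values are uncertain.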

How the data were processed

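Poly(A) RNA-seq values of 2 mouse embryonic stem cell libraries, TKO_FL and TKO, were grouped by the genotype in their labels. Tools listed, without order, in the submitters' processing notes are featureCounts, Subread, SAMtools, HISAT2 and Trim Galore, with the mm10 genome. For the repeat annotation and the counter's settings, no source used here gives details. The authors deposited a repeat and a gene table of signal values named TPM, of which the columns used summed to 9804588 in TKO_FL and 9802099 in TKO cells (repeats) and 10000000 in both (genes), so the deposited signal was divided by 10 and called TPM. The plan had assumed TPM as deposited. Of the repeat table, 11 other library columns were not used.

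Signal times row length, divided by its value for 1 fragment, gave fragments with at most 2 decimals (largest deviation 3.27e-11). Log2 folds used a pseudocount of 1 TPM for names with at least 5 TPM, rows with at least 20 fragments and genes with at least 1 TPM, and a threshold of 2-fold. Folds of summed groups used no pseudocount. Fragment folds carry exact 95% binomial (Clopper-Pearson) intervals, differences of folds exact conditional odds ratio intervals, and TPM sums Poisson intervals. Exon overlap used the gene table's coordinates without strand. Python 3.11.15, numpy 2.4.6, pandas 2.3.3, scipy 1.17.1, pyranges 0.1.4 and matplotlib 3.10.9 were used, and the fold and interval steps were tested on simulated data. The members and gene lists were chosen with earlier results of these data known. Names in the text are the 3 MT and 3 ORR1 names with the highest TPM, names past 2-fold, the youngest names and their internal partners, the 5 rows with most fragments and the 5 highest and lowest folds, and up to 4 genes per list with the largest folds. Others were chosen after their values were seen, and 1 of the 5 rows with most fragments is not reported here.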

Additional observations from a re-analysis of the deposited data

How the results depend on the processing

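Of 104 alternative values, 65 stayed within the main value's counting error (for counts, within 1.5 times), 34 moved and 5 changed the sign of a value whose interval excluded 0. On fragments, without the Lima1 row (chosen after seeing the data, like the next settings), the log2 fold was -0.10 for MTD, as a subfamily and as a name (-0.095), and -0.046 for MT exon rows, and the differences were 0.031 for MT minus ORR1, 0.065 for their LTRs and 0.060 for MT exon rows minus other MT rows. Without the richest row of each side these were 0.029, 0.062 and 0.046, and MT minus MLT1 was -0.0051. Without the MTA names, MT minus ORR1 was 0.15 and MT LTRs minus internal parts 0.063, which was -0.014 when the Lima1 row was left out as well. None of the summed TPM folds of MT, ORR1 and both changed sign except that of MT. Scaled to the total of repeat fragments, the log2 fold was 0.038 for MT, -0.043 for ORR1 and -0.00020 for both, and the medians of names were 0.10 for MT and -0.037 for ORR1, with 0 names past 2-fold either way. Scaled to the total of gene fragments, MT was at -0.026 and both at -0.064. Without rows with a copy in an exon, chosen after seeing the data, summed TPM gave -0.20 for MT, -0.23 for ORR1 and -0.22 for both, and without rows with a copy in the stretch of chromosome 2, also chosen afterwards, MT was at -0.038. Names 2-fold lower were 2 with a pseudocount of 0.1 TPM, and names 2-fold higher were 0 with a pseudocount of 5 TPM and 0 with a minimum of 20 TPM. Rows 2-fold higher and lower were 39 and 50 with a pseudocount of 0.1 TPM, 3 and 1 with 5 TPM, 44 and 60 of 1054 with a minimum of 10 fragments, 7 and 5 of 208 with a minimum of 50, and 42 and 41 on fragments scaled to the repeat total. Fewer or more rows met the minimum in those settings, and the cause of the other changes was not tested. The gene list medians and the MT minus ORR1 difference in summed TPM stayed within their counting error in every setting, although the difference turned to -0.027 without the richest row of each group, and the median of the MT names turned to 0.0052 without the richest row of each name. No paired analysis was possible because each genotype has 1 library and the labels carry no replicate numbers. Low depth limits 31007 of the 31551 rows, for which no fold was read.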
